A study of Mus musculus with 6 samples.

Results

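The genes described here encode the basement membrane and vascular matrix of mouse spleen endothelium. They were taken by name from the deposited expression table, and all 37 were found among its 23337 genes. They comprise 4 collagen IV chains, 10 laminin chains, 2 nidogens, 5 proteoglycans and multiplexins, 9 genes grouped as elastic-fibre genes and 7 other matrix proteins. Mmrn2 was put in the elastic-fibre group as a member of the EMILIN family, not as a known part of elastic fibres. Endothelial cells were sorted as CD31+ CD45- cells from collagenase-digested spleens of 2 genotypes, Stab1-/- and wild type, both labelled C57BL/6. Stab1 is the gene of the scavenger receptor stabilin-1 (Clever-1), found on sinusoidal endothelium, and the study concerns its bearing on contacts between spleen vessels and lymphocytes. RNA-seq gave 3 knockout libraries (KO 2, KO 3 and KO 4) and 3 wild-type libraries (WT 1, WT 3 and WT 4), numbered as in the deposited table. Age, sex, the targeting of the allele and any pooling of animals are not given in the sources used here, and nothing in the labels ties each library to a separate animal. The p-values below therefore measure only the spread between these libraries, which may be technical.

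A basement membrane is a thin sheet of matrix under endothelium, built from a laminin network that binds cell receptors and a collagen IV network that gives it strength, with nidogens and perlecan joining the networks. Laminins are trimers of an alpha, a beta and a gamma chain, and collagen IV of most vessels is a trimer of the Col4a1 and Col4a2 chains. In the spleen, arterioles have a continuous basement membrane, whereas that of the sinuses is interrupted, which lets blood cells pass. Elastic fibres consist of elastin on a scaffold of fibrillin microfibrils, assembled with the help of fibulins.

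The genes of the collagen IV chains lie in head-to-head pairs, and the DNA at the starts of 2 such pairs is shown because the paired chains had very different relations in level. Coordinates and sequences are from RefSeq on GRCm38.p6, the assembly that the browser build mm10 represents. Col4a1 (gene ID 12826, chromosome 8, 11198423 to 11312889, minus strand) and Col4a2 (gene ID 12827, chromosome 8, 11312805 to 11449287, plus strand) overlap at their starts, and the starts used for their promoter windows were 21 bases apart. Only 30 bases are shown there because the region is annotated as transcribed. Col4a5 (chromosome X, 141475370 to 141689236, plus strand) and Col4a6 (chromosome X, 141165403 to 141474095, minus strand) do not overlap, and the starts used for their promoter windows were 1343 bases apart, so each has an upstream stretch of its own. Capitals mark the letters CCAAT, the core of a CCAAT box, read 5′ to 3′.
Col4a1 and Col4a2 start region, chr8:11312771-11312800, plus strand: ccCCAATttgttggcgctgccccctcccct
Col4a5 upstream, chrX:141475169-141475369, plus strand: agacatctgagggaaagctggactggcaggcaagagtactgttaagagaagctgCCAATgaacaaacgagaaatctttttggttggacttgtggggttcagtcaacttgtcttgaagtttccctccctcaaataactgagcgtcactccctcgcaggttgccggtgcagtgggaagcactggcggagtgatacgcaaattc
Col4a6 upstream, chrX:141474096-141474326, minus strand: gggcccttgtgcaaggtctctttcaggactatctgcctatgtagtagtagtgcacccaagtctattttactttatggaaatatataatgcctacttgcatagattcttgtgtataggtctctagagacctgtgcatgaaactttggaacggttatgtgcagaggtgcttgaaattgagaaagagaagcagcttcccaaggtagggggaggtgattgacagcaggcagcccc

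The motifs searched, on both strands of 300-base promoter windows, were the CCAAT box (CCAAT), the GC box (GGGCGG) and the TATA box (TATAAA). RefSeq windows were at hand for 25 of the 37 genes, some with more than 1 start, which made 33 windows. CCAAT was in 8 of these windows (24.2%), against 37.4% of all 32544 windows. GGGCGG was in 24 of them (72.7%), against 35.9%, and TATAAA in 3 (9.09%, those of Tnc and Ecm1), against 13.6%. Some windows of the same gene overlap, so a site can be counted more than once, while the 32544 windows are of distinct sequence. Counted by gene, CCAAT was in 8 of the 25, GGGCGG in 20 and TATAAA in 2. The windows of Col4a1, Col4a2 and Col4a5 each held 1 CCAAT, and that of Col4a6 held 0. The CCAAT marked in the start region shown is the one of the Col4a2 window, and the Col4a1 window holds another. These matches describe letters only.

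Libraries held 40612694 to 51904253 reads counted to genes, recovered from the deposited values. Stab1 had 2.32, 2.62 and 2.49 RPKM (reads per kilobase of gene, scaled to library size) in KO 2, KO 3 and KO 4, against 21.6, 43.6 and 31.4 RPKM in WT 1, WT 3 and WT 4. Its difference was -3.40 ± 0.22 (SE) on the log2 scale (adjusted p = 7.15e-05 in limma). A two-sided exact permutation test of the means gave 0.1, which is the lowest p possible with 3 libraries per genotype. All 12 endothelial markers passed the filter on low values, with summed levels of 4097 to 4626 RPKM in knockout and 3659 to 4241 RPKM in wild type. Markers of splenic sinus endothelium summed to 2409, 2253 and 2799 RPKM in KO 2, KO 3 and KO 4, against 3334, 4030 and 3698 RPKM in WT 1, WT 3 and WT 4, without overlap. Of 7 tested, 2 were called, both lower in knockout, the lectin gene Clec4g (log2 fold change -1.25, adjusted p = 0.00106 in limma) and the Fc receptor gene Fcgr2b (log2 fold change -2.47, adjusted p = 0.00454 in limma). Clec4g differed most in RPKM, with means of 698 in knockout and 1650 in wild type. Of the 7, 5 log2 fold changes were negative and 2 positive. Gpr182 was higher in each knockout library, at 759 to 775 RPKM against 548 to 624 RPKM in wild type (log2 fold change 0.41, adjusted p = 0.053 in limma). Stab2 stood at 0.10 and Mrc1 at -0.02. The part of these marker differences in the matrix values below was not tested. Of 6 leukocyte markers 0 passed, and their sum was 1.20 to 1.68 RPKM in knockout and 1.52 to 2.24 RPKM in wild type. WT 1 stood apart. Its summed fibroblast and reticular markers reached 302 RPKM, against 73.1 to 109 RPKM in the knockout libraries and 112 and 124 RPKM in the other wild-type libraries, and its long GC-rich transcripts were low, as described further on. The fibroblast and reticular sums include Cxcl13, which was called lower in knockout.

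Of the 37 genes, 29 reached 1 RPKM or more in 3 or more of the 6 libraries and were tested. In limma fitted over all 11035 genes tested, 0 of them passed an adjusted p of 0.05, against 1.94% of all genes (0.671% called higher and 1.27% called lower in knockout). The lowest adjusted p was 0.0857, for Fbln2. Voom on recovered reads also called 0 of the 29, against 2.17% of all genes. At an unadjusted p under 0.05 in limma there were 7 (24.1%, against 15.7% of all genes tested), 3 of them higher in knockout (Nid2, Fbln2 and Mmrn2) and 4 lower (Emilin1, Mgp, Ecm1 and Sparcl1). Log2 fold changes, knockout minus wild type on the log2(RPKM + 0.5) scale, ran from -0.87 for Emilin1 to 0.80 for Nid2, 15 positive and 14 negative, with a median of 0.02 beside 0.03 over all genes tested. That scale understates the change of low genes. The values of both genotypes did not overlap for 2 genes higher in knockout and 5 lower. This was 24.1% of the 29, against 20.3% of all genes tested (10.7% higher and 9.57% lower). Calls among the 29 appeared under 3 alternatives. With library quality weights 13 were called, against 33.1% of all genes, with GC and length trends removed 1 was called (Emilin1), against 2.1%, and without WT 3 there were 2 calls (Mmrn2 and Ecm1), against 1.38%. In the authors' deposited table, which lists 36 of the 37 genes, 0 had an adjusted p under 0.05, and the lowest was 0.104, for Fbln2.

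The members covered the whole range of expression. Vwa1, at the 99.0th percentile of the genes tested, had the highest level, and 17 of the 29 averaged at least 10 RPKM. The 8 that did not pass the filter were Col4a6, Lama1, Lama2, Lama3, Lama5, Lamb1, Lamb3 and Tnc, and the highest value among them was 1.29 RPKM (Tnc in KO 2). Because the RNA came from bulk sorted cells, fewer cells of a type and less RNA per cell cannot be told apart in any value given here.

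**Figure D1:**
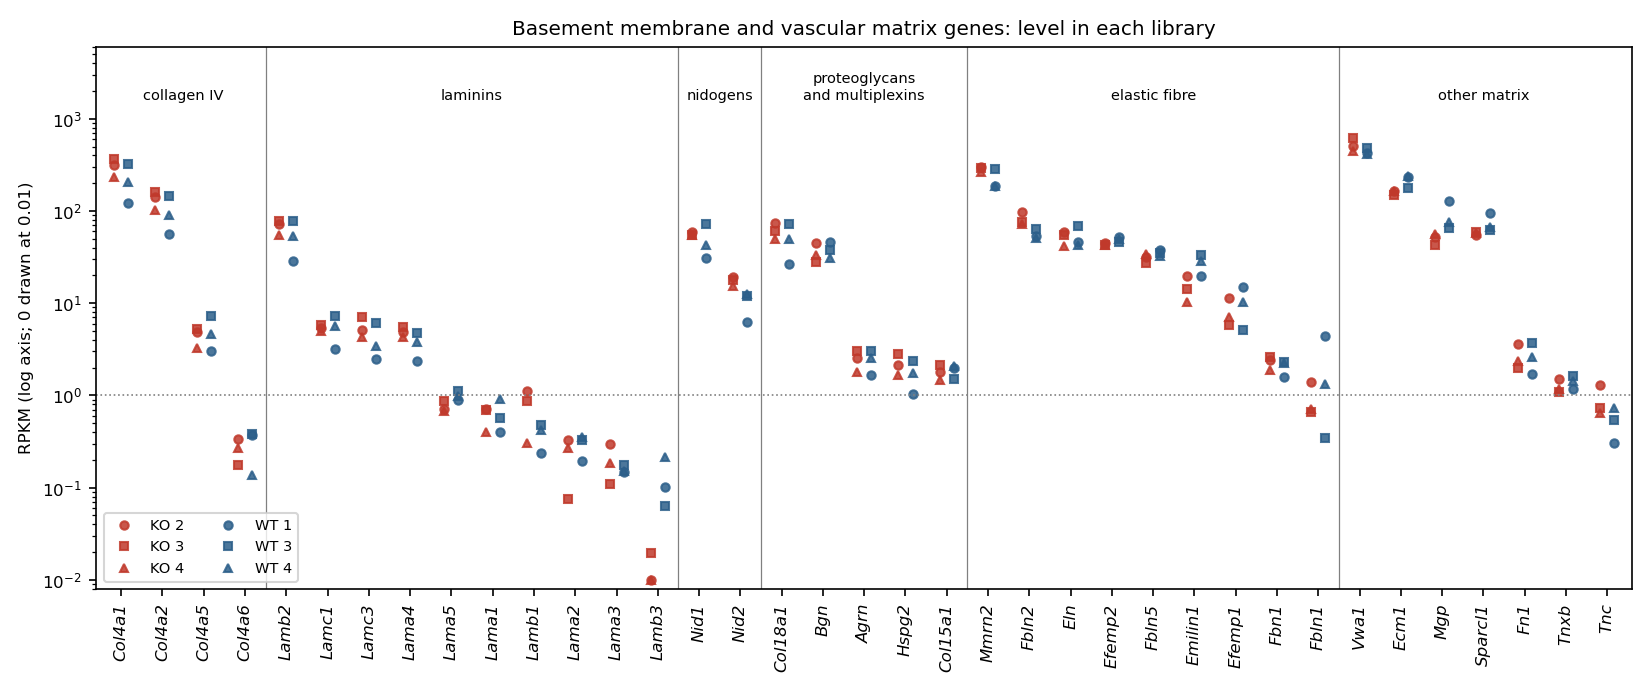
Level of each of the 37 genes in each library, in RPKM on a log axis, with values of 0 drawn at 0.01 and a dotted line at 1 RPKM. Red points are knockout and blue points wild-type libraries, grouped by role. Levels span Vwa1 at 410 to 623 RPKM and Lamb3 at 0 to 0.216 RPKM, and the genotypes overlap for most genes.

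**Figure D2:**
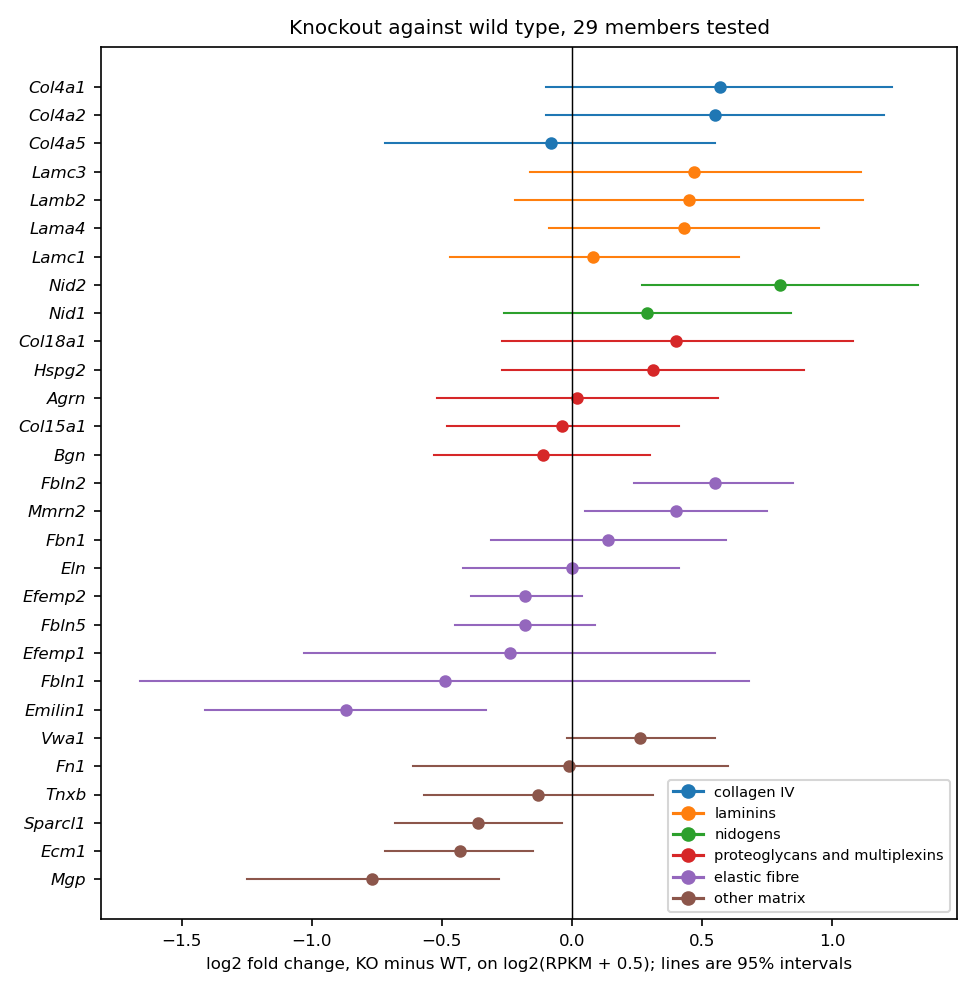
Log2 fold change, knockout minus wild type, of the 29 genes tested, on the log2(RPKM + 0.5) scale, with lines as 95% intervals from limma and colours as roles. Intervals of 7 genes leave out 0 before adjustment (Nid2, Fbln2 and Mmrn2 higher, Emilin1, Mgp, Ecm1 and Sparcl1 lower), and 0 genes pass after adjustment over all genes tested.

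Collagen IV RNA was almost wholly Col4a1 and Col4a2. Col4a1 had 312, 367 and 231 RPKM in KO 2, KO 3 and KO 4, against 123, 324 and 205 RPKM in WT 1, WT 3 and WT 4. Its mean was 303 ± 68.3 RPKM in knockout and 217 ± 101 RPKM in wild type (SD, n = 3 each). Col4a2 had 143, 160 and 102 RPKM in KO 2, KO 3 and KO 4, against 56.2, 144 and 90.7 RPKM in WT 1, WT 3 and WT 4. For both genes WT 1 was lowest and KO 3 highest, and the genotypes overlapped. For Col4a1 the log2 fold change was 0.57 ± 0.30 (SE, adjusted p = 0.388 in limma, 95% interval -0.10 to 1.23), and it was 0.21 without WT 1 and 0.91 without WT 3. Col4a2 stood at 0.55 ± 0.29 (SE, adjusted p = 0.390 in limma), and at 0.21 without WT 1 and 0.89 without WT 3. Counting error was small here, since Col4a1 rested on 33829 to 123261 reads per library.

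The ratio of the paired chains hardly varied. Col4a1 over Col4a2 was 2.19, 2.29 and 2.27 in KO 2, KO 3 and KO 4, against 2.18, 2.25 and 2.26 in WT 1, WT 3 and WT 4, while summed collagen IV ran from 182 to 532 RPKM over the 6 libraries. Both genes thus moved together between libraries of the same genotype. Col4a5, a chain of the collagen IV of kidney and smooth muscle basement membranes, ranged from 3.29 to 5.22 RPKM in knockout and from 3.01 to 7.22 RPKM in wild type (log2 fold change -0.08 ± 0.28 SE, adjusted p = 0.904 in limma). It was -0.36 without WT 1 and 0.21 without WT 3. Its share of summed collagen IV was 1.05%, 0.981% and 0.978% in KO 2, KO 3 and KO 4, against 1.65%, 1.52% and 1.53% in WT 1, WT 3 and WT 4. These shares did not overlap between the genotypes, a description chosen after its values were seen and not tested. Its neighbour Col4a6 was at 0.138 to 0.378 RPKM in all 6 libraries, and Col4a5 over Col4a6 varied between 8.02 and 33.1, unlike the Col4a1 and Col4a2 pair. Col4a6 rested on only 42 to 127 reads per library, against 15063 to 52197 for Col4a2. The part of counting error in the spread of the Col4a5 over Col4a6 ratio was not tested. Col4a3 and Col4a4, the chains of the glomerular network, had at most 0.195 and 0.0614 RPKM.

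**Figure D3:**
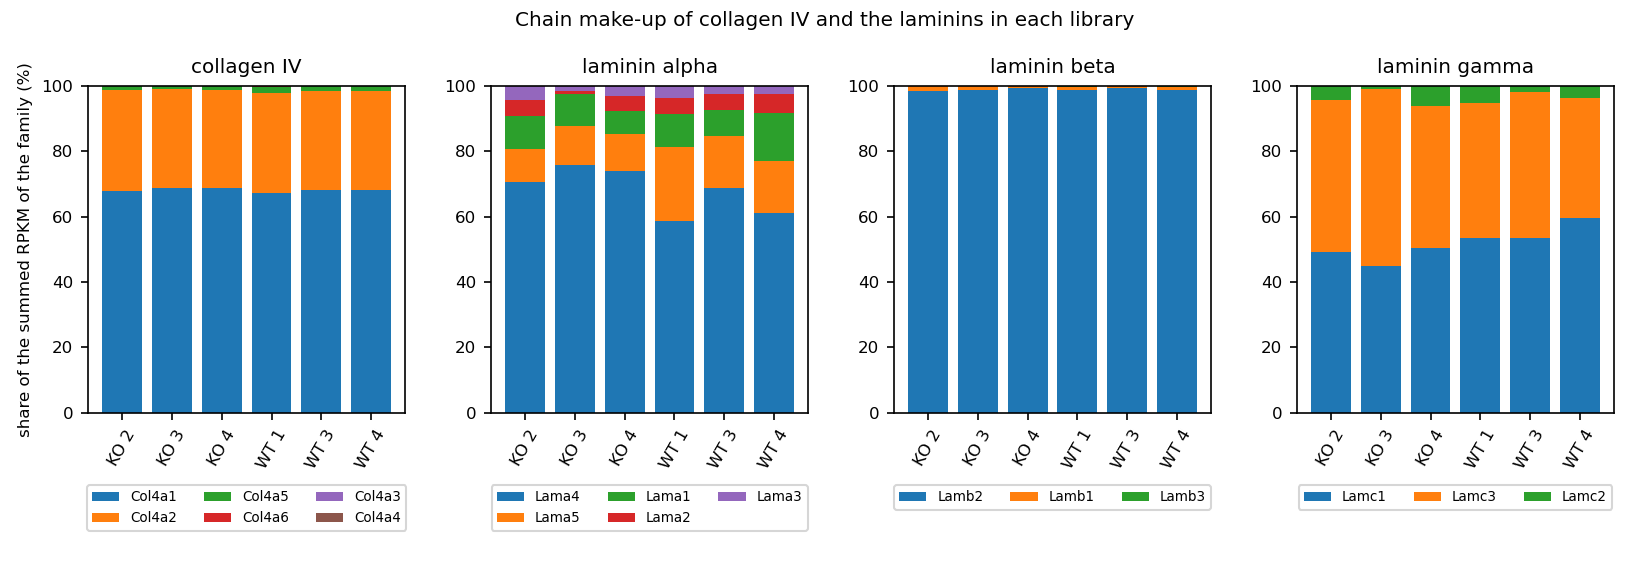
Share of each chain in the summed RPKM of its family, in percent, for collagen IV and for laminin alpha, beta and gamma chains, 1 stacked bar per library with knockout left of wild type. Col4a1 makes up 67.2% to 68.9% of collagen IV and Lamb2 98.5% to 99.4% of beta chains in every library, while Lama4 makes up 70.5% to 75.9% of alpha chains in knockout and 58.7% to 68.7% in wild type.

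Laminin RNA was dominated by 1 beta chain. Lamb2, the beta chain of mature vessel and muscle basement membranes, had 72.5, 78.0 and 55.4 RPKM in KO 2, KO 3 and KO 4, against 28.7, 78.7 and 53.9 RPKM in WT 1, WT 3 and WT 4. WT 3 and KO 3 were nearly equal at the top, and WT 1 lay far below all others. Lamb2 had a log2 fold change of 0.45 ± 0.30 (SE, adjusted p = 0.483 in limma), which was 0.06 without WT 1 and 0.78 without WT 3. Lamb1, the other common beta chain, had 0.305 to 1.12 RPKM in knockout and 0.237 to 0.479 RPKM in wild type, so Lamb2 made up at least 98.5% of beta-chain RPKM in each library. Lamb3, a chain of epithelial laminins, was counted with 0, 4 and 0 reads in KO 2, KO 3 and KO 4, against 17, 13 and 40 reads in WT 1, WT 3 and WT 4, a level too low for the test.

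Lama4, the alpha chain typical of endothelial basement membranes, was the leading alpha chain, with 4.88, 5.51 and 4.31 RPKM in KO 2, KO 3 and KO 4, against 2.34, 4.78 and 3.77 RPKM in WT 1, WT 3 and WT 4. WT 1 was again lowest, and KO 4 lay between WT 3 and WT 4. Lama4 had a log2 fold change of 0.43 ± 0.23 (SE, adjusted p = 0.400 in limma), which was 0.18 without WT 1 and 0.63 without WT 3. Lama5, the other endothelial alpha chain, was too low for the test, with 0.706, 0.860 and 0.673 RPKM in KO 2, KO 3 and KO 4, against 0.901, 1.11 and 0.980 RPKM in WT 1, WT 3 and WT 4. Its values did not overlap between the genotypes, being lower in each knockout library, and its share of alpha chains was 10.2% to 11.9% in knockout and 15.9% to 22.6% in wild type. The share of Lama4 was 73.4% ± 2.73 in knockout and 62.9% ± 5.21 in wild type (SD, n = 3 each), a description with no test. Lama1, Lama2 and Lama3, chains of embryonic, muscle and epithelial laminins, ranged from 0.0749 to 0.904 RPKM.

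The gamma chains were divided between Lamc1, the common gamma chain, and Lamc3. Lamc1 had 5.45, 5.81 and 5.04 RPKM in KO 2, KO 3 and KO 4, against 3.22, 7.20 and 5.60 RPKM in WT 1, WT 3 and WT 4. Lamc3 had 5.16, 7.0 and 4.34 RPKM in KO 2, KO 3 and KO 4, against 2.48, 6.03 and 3.44 RPKM in WT 1, WT 3 and WT 4. The genotypes overlapped for both, and neither passed, with log2 fold changes of 0.08 ± 0.25 (SE, adjusted p = 0.889 in limma) for Lamc1 and 0.47 ± 0.28 (SE, adjusted p = 0.437) for Lamc3. Without WT 1 these were -0.21 and 0.22, and without WT 3 they were 0.31 and 0.78. Lamc1 made up 48.2% ± 2.94 of gamma-chain RPKM in knockout and 55.5% ± 3.61 in wild type (SD, n = 3 each). Summed beta chains exceeded summed alpha chains by 9.54 to 10.9 times in knockout and by 7.27 to 11.4 times in wild type, whereas the protein trimer holds 1 chain of each kind. These ratios set RPKM of different genes side by side, divided by gene length but not corrected for GC content or any further length trend. They are not measured ratios of molecules. Ntn4, a laminin-related netrin of vascular basement membranes that binds laminin, was at 121 to 143 RPKM in knockout and 121 to 146 RPKM in wild type (log2 fold change -0.01, adjusted p = 0.983 in limma).

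The nidogens, which bridge laminin and collagen IV, differed from each other. Nid2 (gene ID 18074, chromosome 14, 19751257 to 19811787) had 19.1, 18.0 and 15.4 RPKM in KO 2, KO 3 and KO 4, against 6.20, 12.0 and 12.5 RPKM in WT 1, WT 3 and WT 4. All 3 knockout values lay above all 3 wild-type values. The log2 fold change of 0.80 ± 0.24 (SE) was the greatest positive one among the 29 genes, but the adjusted p was 0.146 in limma, and without WT 1 it was 0.49 (adjusted p = 0.134) and without WT 3 0.94 (0.114). Nid1 had 58.8, 54.9 and 54.6 RPKM in KO 2, KO 3 and KO 4, against 31.0, 72.3 and 42.7 RPKM in WT 1, WT 3 and WT 4. The knockout libraries lay inside the wide wild-type range, with a log2 fold change of 0.29 ± 0.24 (SE, adjusted p = 0.579 in limma), which stood at 0.01 without WT 1 and at 0.62 without WT 3 (adjusted p = 0.0771). Nid2 lies 11.3 Mb from Stab1 on the same chromosome. Within 20 Mb of Stab1, 7.81% of 128 genes tested were called, against 1.94% of all genes tested. Whether its position bears on its values was not tested. Nid2 also overlaps the annotated gene Rtraf, and without strand information any shared reads could not be given to either gene. Whether such reads bear on the values of Nid2 was not tested.

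Proteoglycans and multiplexins showed no common direction, with a median log2 fold change of 0.02 over 5 genes. Over the alternatives this median ran from -0.14, once GC and length trends were removed, to 0.27 with library quality weights. Col18a1, the source of endostatin, had 75.0, 61.3 and 49.2 RPKM in KO 2, KO 3 and KO 4, against 26.9, 72.9 and 49.4 RPKM in WT 1, WT 3 and WT 4. Bgn, a small leucine-rich proteoglycan, had 44.5, 28.2 and 33.4 RPKM in KO 2, KO 3 and KO 4, against 45.6, 37.8 and 30.9 RPKM in WT 1, WT 3 and WT 4. Hspg2, which encodes the heparan sulfate proteoglycan perlecan, had 2.16, 2.79 and 1.67 RPKM in KO 2, KO 3 and KO 4, against 1.04, 2.34 and 1.77 RPKM in WT 1, WT 3 and WT 4. The genotypes overlapped for each, and WT 1 was lowest for Col18a1 and Hspg2 and highest for Bgn. Log2 fold changes were 0.40 ± 0.30 (SE, adjusted p = 0.534 in limma) for Col18a1, -0.11 ± 0.18 (SE, 0.785) for Bgn and 0.31 ± 0.26 (SE, 0.574) for Hspg2. Without WT 1 these were 0.02, 0.02 and 0.07, and without WT 3 they were 0.73, -0.11 and 0.51. Agrn, the heparan sulfate proteoglycan agrin, and Col15a1, the second multiplexin, lay between 1.49 and 3.05 RPKM in all libraries, with log2 fold changes of 0.02 and -0.04.

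Elastic-fibre genes split in direction. Fbln2, whose product fibulin-2 binds elastin, nidogen and other matrix proteins (gene ID 14115, chromosome 6, 91212460 to 91272540), had 97.9, 76.6 and 72.8 RPKM in KO 2, KO 3 and KO 4, against 53.8, 64.0 and 50.7 RPKM in WT 1, WT 3 and WT 4. Every knockout value was above every wild-type value. Fbln2 had a log2 fold change of 0.55 ± 0.14 (SE, adjusted p = 0.0857 in limma, unadjusted 95% interval 0.24 to 0.85), and it was 0.52 without WT 1. With GC and length trends removed it was 0.37 (adjusted p = 0.140 in limma). Emilin1, a glycoprotein at the surface between elastin and microfibrils (gene ID 100952, chromosome 5, 30913387 to 30921279), had 19.6, 14.2 and 10.3 RPKM in KO 2, KO 3 and KO 4, against 19.7, 33.0 and 28.4 RPKM in WT 1, WT 3 and WT 4. The groups did not overlap, though KO 2 and WT 1 were nearly equal. Its log2 fold change of -0.87 ± 0.24 (SE, adjusted p = 0.118 in limma) was the most negative among the 29. With GC and length trends removed it was -1.02 and passed (adjusted p = 0.0289 in limma). In the authors' deposited table the log2 fold change of Emilin1 was -0.89, with an adjusted p of 0.140.

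Mmrn2, the endothelial multimerin of the EMILIN family (chromosome 14, 34375504 to 34404287), was among the most abundant, with 296, 295 and 263 RPKM in KO 2, KO 3 and KO 4, against 186, 285 and 188 RPKM in WT 1, WT 3 and WT 4. WT 3 lay inside the knockout range and the other wild-type libraries below it. The log2 fold change was 0.40 ± 0.16 (SE, adjusted p = 0.257 in limma), and it passed at 0.60 without WT 3 (adjusted p = 0.0198 in limma). Mmrn2 lies 3.21 Mb from Stab1, also within 20 Mb of it. Eln, the gene of elastin itself, ranged from 41.9 to 59.7 RPKM in knockout and from 43.3 to 68.9 RPKM in wild type, and Fbn1, that of fibrillin-1, from 1.89 to 2.60 RPKM in knockout and from 1.59 to 2.32 RPKM in wild type. Their log2 fold changes were 0.00 and 0.14. Efemp2 (fibulin-4) and Fbln5 (fibulin-5), both needed for elastic-fibre assembly in mice, each had a log2 fold change of -0.18, and the values of Efemp2 did not overlap (42.3 to 45.1 RPKM in knockout and 46.1 to 51.8 RPKM in wild type, adjusted p = 0.394 in limma).

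Of the 29 genes tested, Fbln1 and Efemp1 had the greatest ratios of highest to lowest wild-type value (12.8 and 2.95). Fbln1, the gene of fibulin-1, had 1.40, 0.668 and 0.714 RPKM in KO 2, KO 3 and KO 4, against 4.36, 0.342 and 1.34 RPKM in WT 1, WT 3 and WT 4 (log2 fold change -0.49 ± 0.52 SE, adjusted p = 0.663 in limma). Efemp1, the gene of fibulin-3, ranged from 5.78 to 11.4 RPKM in knockout and had 14.9, 5.06 and 10.3 RPKM in WT 1, WT 3 and WT 4. Both were highest in WT 1 and lowest in WT 3, and the log2 fold change of Efemp1 was -0.24 with all libraries and 0.09 without WT 1. The same libraries were highest and lowest for summed mesothelial markers (4 of 9 tested, 0 called), which reached 7.55, 5.62 and 2.99 RPKM in KO 2, KO 3 and KO 4, against 19.9, 2.07 and 9.06 RPKM in WT 1, WT 3 and WT 4, with Msln, Upk3b and Krt19 at 0 in WT 3. Summed fibroblast and reticular markers (11 of 14 tested, 1 called lower) were 109, 76.3 and 73.1 RPKM in KO 2, KO 3 and KO 4, against 302, 112 and 124 RPKM in WT 1, WT 3 and WT 4. The gene called was Cxcl13 (log2 fold change -1.91, adjusted p = 0.00159 in limma). It made up 19.1, 14.2 and 14.6 RPKM of the sum in KO 2, KO 3 and KO 4, against 76.0, 67.6 and 43.7 RPKM in WT 1, WT 3 and WT 4. The part of mesothelial, fibroblast and reticular cells in the values of Fbln1 and Efemp1 was not tested.

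The other matrix genes were mostly at lower values in knockout, with 5 of 6 log2 fold changes negative and a median of -0.25, and 0 called. Mgp, matrix Gla protein, an inhibitor of calcification (gene ID 17313, chromosome 6, 136872435 to 136875823), had 52.7, 42.8 and 56.0 RPKM in KO 2, KO 3 and KO 4, against 127, 65.2 and 76.5 RPKM in WT 1, WT 3 and WT 4. Ecm1, a secreted glycoprotein that binds perlecan and fibulins, had 166, 148 and 164 RPKM in KO 2, KO 3 and KO 4, against 234, 176 and 241 RPKM in WT 1, WT 3 and WT 4. Neither gene's genotypes overlapped, and every knockout value was the lower. The log2 fold change of Mgp was -0.77 ± 0.22 (SE, adjusted p = 0.126 in limma), and it was -0.49 without WT 1. For Ecm1 it was -0.43 ± 0.13 (SE, adjusted p = 0.142 in limma), and it passed at -0.58 without WT 3 (adjusted p = 0.0235 in limma). Sparcl1, a secreted relative of SPARC, had 55.5 to 58.5 RPKM in knockout and 62.4 to 94.0 RPKM in wild type, also without overlap (log2 fold change -0.36 ± 0.14 SE, adjusted p = 0.268 in limma). It was -0.18 without WT 1. In these libraries megakaryocyte and platelet markers (10 of 10 tested, 1 called lower) summed to 58.7, 63.6 and 77.3 RPKM in KO 2, KO 3 and KO 4, against 132, 253 and 91.8 RPKM in WT 1, WT 3 and WT 4. That sum was highest in WT 3, where Mgp, Ecm1 and Sparcl1 had their lowest wild-type values. The fibroblast and mesothelial sums given above were highest in WT 1, as were Mgp and Sparcl1. Pericyte and smooth muscle markers summed to 651, 705 and 602 RPKM in KO 2, KO 3 and KO 4, against 773, 632 and 582 RPKM in WT 1, WT 3 and WT 4. Of 12 tested, 1 was called lower (Rgs5, log2 fold change -1.34, adjusted p = 0.019 in limma). The part of any of these cells in the lower values was not tested.

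Vwa1, a perlecan-binding protein of vascular basement membranes, had 511, 623 and 446 RPKM in KO 2, KO 3 and KO 4, against 422, 476 and 410 RPKM in WT 1, WT 3 and WT 4. Only KO 4 lay inside the wild-type range. The log2 fold change was 0.26 ± 0.13 (SE, adjusted p = 0.353 in limma). Fn1 (fibronectin) and Tnxb (tenascin-X) were low, at 1.08 to 3.57 RPKM in knockout and 1.17 to 3.72 RPKM in wild type, with log2 fold changes of -0.01 and -0.13.

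Across roles, the median log2 fold change was 0.55 for collagen IV (3 tested), 0.44 for laminins (4 tested) and 0.55 for nidogens (2 tested), beside 0.03 over all genes tested. It was 0.02 for proteoglycans and multiplexins, -0.18 for elastic-fibre genes (9 tested) and -0.25 for other matrix genes. Without WT 1 the medians of collagen IV, laminins and nidogens were 0.21, 0.12 and 0.25, and that of elastic-fibre genes was -0.04. Without WT 3 the first 3 were 0.89, 0.70 and 0.78. Differences between these role groups were not tested, and the members that passed the filter are not all members.

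The basement membrane genes varied together between libraries. All 9 tested collagen IV, laminin and nidogen genes had their lowest value in WT 1, and so did 15 of the 29 (51.7%), against 26.7% of all genes tested. The median deviation of collagen IV genes from each gene's mean, on the log2 scale, was 0.35, 0.55 and -0.10 in KO 2, KO 3 and KO 4, against -0.95, 0.40 and -0.26 in WT 1, WT 3 and WT 4. Laminins followed a like order, with 0.20, 0.40 and -0.05 in KO 2, KO 3 and KO 4, against -0.73, 0.40 and -0.11 in WT 1, WT 3 and WT 4. Proteoglycans and multiplexins also had a like order, with 0.15, 0.21 and -0.14 in KO 2, KO 3 and KO 4, against -0.42, 0.24 and -0.08 in WT 1, WT 3 and WT 4. Of these 5 genes, 3 were lowest in WT 1 and 1 was highest there. Elastic-fibre genes did not share this order, with 0.20, -0.13 and -0.16 in KO 2, KO 3 and KO 4, against 0.02, 0.08 and 0.05 in WT 1, WT 3 and WT 4. The SD of log2 values within a genotype had a median of 0.24 in knockout and 0.44 in wild type over the 29 genes, against 0.14 in knockout and 0.18 in wild type over all genes tested. Both medians were higher over the matrix genes.

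**Figure D4:**
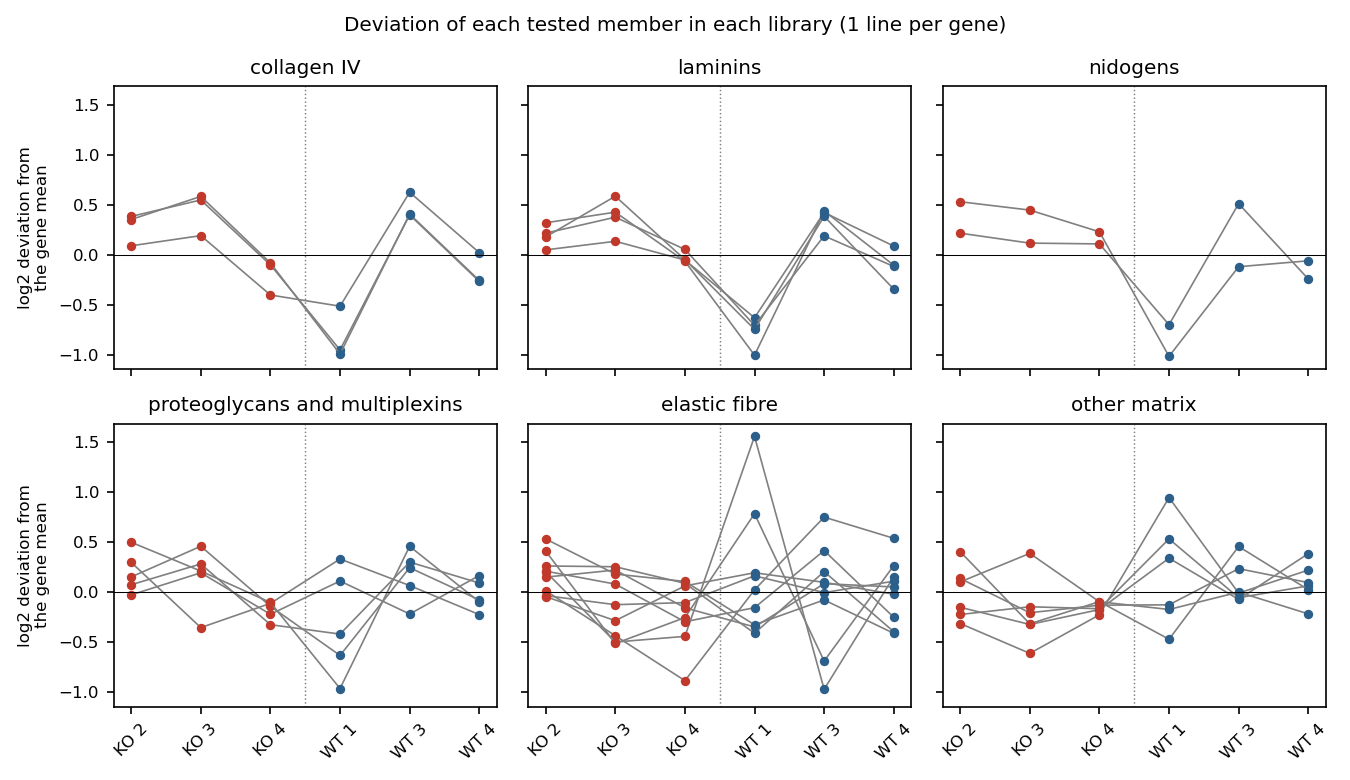
Deviation of each tested gene from its mean over the 6 libraries, on the log2(RPKM + 0.5) scale, 1 panel per role and 1 line per gene, with knockout (red) left of wild type (blue). All 9 collagen IV, laminin and nidogen lines have their lowest point in WT 1, where their role medians lie at -0.73 to -0.95, while elastic-fibre and other matrix lines have no common course.

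Transcripts both long and GC-rich had a like order between libraries. The median length per gene, as the deposited values imply it, was 5829 bases for the 37 genes and 2744 bases for all genes tested, and the median GC content was 54.1% and 49.8%. Over the 469 tested genes of more than 55% GC and more than 4000 bases, the median log2 deviation was 0.14, 0.23 and -0.07 in KO 2, KO 3 and KO 4, against -0.39, 0.23 and -0.11 in WT 1, WT 3 and WT 4. WT 1, WT 4 and KO 4 were the lowest libraries in that order, as for collagen IV and laminins, and the deviations were smaller. Genes set apart by length alone did not follow this order, and those set apart by GC content alone followed it in part. Both of these sets include the 469 genes. Over 2977 genes of more than 4000 bases the values were -0.02, -0.007 and 0.024 in KO 2, KO 3 and KO 4, against -0.178, 0.169 and 0.063 in WT 1, WT 3 and WT 4. Over 2483 genes of more than 55% GC they were 0.091, 0.147 and -0.051 in KO 2, KO 3 and KO 4, against -0.071, 0.025 and -0.105 in WT 1, WT 3 and WT 4. There WT 1, WT 4 and KO 4 were again the lowest libraries, but WT 4 lay below WT 1. With the trends on GC content and length removed, the median log2 fold change was 0.34 for collagen IV and 0.26 for laminins, and 1 of the 29 genes, Emilin1, passed.

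Genes that fold, link, cut or bind this matrix were looked at beside it. Over all genes tested, 1.94% were called and 15.7% had an unadjusted p under 0.05, and in each of the lists below limma and voom called 0. Of 16 tested genes of collagen folding and crosslinking, 0 were called (3 at an unadjusted p under 0.05 in limma, median log2 fold change 0.05). Serpinh1, the collagen chaperone HSP47, had 737, 674 and 639 RPKM in KO 2, KO 3 and KO 4, against 532, 520 and 579 RPKM in WT 1, WT 3 and WT 4, without overlap (log2 fold change 0.33 ± 0.09 SE, adjusted p = 0.135 in limma). Plod1, a lysyl hydroxylase, had a log2 fold change of 0.45 (adjusted p = 0.181 in limma) and Mia3, which carries collagen out of the endoplasmic reticulum, one of -0.50 (adjusted p = 0.267). Of 15 proteases and inhibitors 0 were called (2 at an unadjusted p under 0.05 in limma). Htra1, a secreted serine protease, had 73.9, 67.6 and 63.7 RPKM in KO 2, KO 3 and KO 4, against 52.8, 54.8 and 45.2 RPKM in WT 1, WT 3 and WT 4, without overlap (log2 fold change 0.42 ± 0.11 SE, adjusted p = 0.0952 in limma). Adamts4 and Adamts5, proteases of proteoglycans, had log2 fold changes of -0.50 (adjusted p = 0.182 in limma) and -0.37 (adjusted p = 0.328).

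Of 19 tested matrix receptors 0 were called (2 at an unadjusted p under 0.05 in limma, median log2 fold change 0.08). Itga1, the collagen-binding integrin chain with a preference for collagen IV, had 29.6, 29.4 and 34.4 RPKM in KO 2, KO 3 and KO 4, against 34.1, 50.6 and 44.3 RPKM in WT 1, WT 3 and WT 4 (log2 fold change -0.45 ± 0.15 SE, adjusted p = 0.191 in limma). KO 4 and WT 1 overlapped narrowly. Itga7, a laminin-binding integrin chain, stood at 0.42 (adjusted p = 0.303 in limma) and Ddr1, a collagen receptor kinase, at -0.35 (adjusted p = 0.414). Of 9 tested microfibril and TGF-beta-binding genes 0 were called (1 at an unadjusted p under 0.05 in limma, median log2 fold change -0.25), and the values of Mmrn1, the platelet and endothelial multimerin, were 0.623 to 0.925 RPKM in knockout and 1.20 to 2.43 RPKM in wild type (log2 fold change -0.76, adjusted p = 0.181). Mfap4 and Mfap5, microfibril-associated proteins, were highest in WT 1, at 6.10 and 5.75 RPKM, and at most 2.45 RPKM in every other library. Of 8 tested interstitial collagens 0 were called, in limma and at an unadjusted p under 0.05 alike. Col1a1 had 11.7, 7.88 and 6.05 RPKM in KO 2, KO 3 and KO 4, against 33.3, 7.40 and 7.30 RPKM in WT 1, WT 3 and WT 4. Col5a2 and Col14a1 had log2 fold changes of 0.36 and 0.31.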

How the data were processed

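RNA of CD31+ CD45- spleen cells was made into libraries with SMART-Seq v4 and Nextera XT, per the labels' protocols. Tools named in the submitters' processing notes are Subread, STAR 2.5.2b, limma and edgeR, with build mm10. The authors deposited expression as RPKM. They also deposited group means, log2 fold changes, p-values with and without adjustment, and a signed fold-change score (the negative reciprocal where knockout is lower), per the file headers. Columns show a genotype and a number unlike the labels' replicate numbers, so each was assigned to its genotype only, and 0 columns of per-sample values were left without a group.

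Since RPKM are not counts, limma 3.58.1 (R 4.3.3) was fitted to log2(RPKM + 0.5) with genotype as the term and a mean-variance trend, with Benjamini-Hochberg adjustment over all genes tested. For 100% of the 17683 genes above 0, values were whole multiples of 1 read's worth within 0.001, which gave reads, depth and gene lengths. Scaling beyond depth was 0.979 to 1.03. For 242 genes a common factor of the reads was settled by GENCODE M21 length. Limma's voom was run on these reads. Shares, levels and figures used Python 3.11.15 (pandas 2.3.3, matplotlib 3.10.9, scipy 1.17.1). Simulated data were used to test the fitting script.

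The members, role groups and other lists were chosen with earlier results of these data known. Values per library are given by rule for the 2 most abundant genes and the 2 of smallest p in each role group, and for Stab1. Up to 3 genes of smallest p are named from each other list, some with their values per library. The other genes given per library (Lama5, Lamb3, Fbln1, Efemp1), which of the other lists' genes are given so, the left-out libraries shown and the Col4a5 share were chosen after their values were seen.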

Additional observations from a re-analysis of the deposited data

How the results depend on the processing

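Over 17 alternatives, the log2 fold changes and calls of the tested members were recomputed. With 0 members called, no call could be lost, though calls were gained under some alternatives, as given below. The log2 fold changes of 7 of the 29 turned sign under 1 or more alternatives (Agrn, Bgn, Col15a1, Col4a5, Efemp1, Fn1 and Lamc1). The count of genes called, 214 in all (74 higher and 140 lower in knockout), was 77 with no filter on low values (31 higher, 46 lower) and 3653 with library quality weights (1772 higher, 1881 lower). It ranged from 48 to 406 as each library was left out (16 to 68 higher, 32 to 347 lower). Of the members, 0 were called higher and 0 lower. With quality weights 9 were called higher and 4 lower, while 33.1% of all genes were called. These weights rested mostly on KO 2 (3.12) and WT 4 (4.19), against 0.336 for WT 1. With GC and length trends removed 1 was called lower (Emilin1), among 2.1% of all genes. Without WT 3, Mmrn2 was called higher and Ecm1 lower, so the range on leaving out a library was 0 to 1 in each direction, among 1.38% of all genes without WT 3. The cause of these differences was not tested. The median log2 fold change of other matrix genes, -0.25, was -0.13 with no filter on low values and -0.40 with a filter at 5 RPKM, which test other sets of genes. Without WT 1 the medians of collagen IV, laminins and nidogens were lower than with all libraries and without WT 3 higher, with the values given above.

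No paired analysis was possible because the deposited columns carry numbers that do not match the labels' replicate numbers. Count tests with edgeR and DESeq2 were not run, since the files analysed here hold no counts. There were 3 libraries a genotype with at least 40612694 reads each, and WT 1 was lowest for the 9 tested collagen IV, laminin and nidogen genes. The spread between libraries thus appears to limit the precision more than counting error does, though their parts were not separated by a test. Members with few reads, such as Lamb3 (0 to 40 reads), are an exception, while Lama5, also low, had 313 to 637 reads.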
